A study of Mus musculus with 6 samples.

Results

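Tubulins and the proteins that act on microtubules were examined as 41 genes: 12 α- and β-tubulin isotypes, 2 γ-tubulins, 7 structural microtubule-associated proteins (MAPs), 3 genes of the doublecortin family, 4 stathmins, 5 collapsin response mediator proteins (CRMPs), 3 end-binding proteins, and 5 genes for tubulin folding cofactors and tubulin tyrosine ligase. All probe sets annotated to exactly 1 of these genes were taken, which gave 105 of the 45037 probe sets that are not controls, for 39 of the 41 genes. Tuba1b and Tuba1c are each annotated only together with a predicted gene and are therefore described apart. The samples were left and right pools of GFP-positive cervical motoneurons from 3 HB9::GFP transgenic mouse embryos of 1 litter at E11.5, so that 6 arrays hold 1 pool of each side from each embryo. HB9 (Mnx1) is a homeodomain factor of spinal motoneurons, and its promoter drives the GFP by which the regions were chosen. Both pools of an embryo were cut by laser from the same frozen sections, so a pool holds the motoneuron cell bodies with any other cell that lay in the outlined area. In such captures, fewer cells of a type and less RNA per cell cannot be told apart. The study asked whether left and right phrenic motoneurons already differ in their transcripts, and all ratios, written log2(R/L), compare the pools of a single embryo.

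Microtubules are polymers of α- and β-tubulin dimers that grow and shrink mainly at their plus ends, and γ-tubulin serves as the template on which they start. A growing axon depends on them for its extension and for transport: MAPs and doublecortin bind along the lattice and stabilise it, stathmins bind free dimers and promote shrinkage, CRMPs link tubulin to guidance signals, end-binding proteins ride on plus ends, and the folding cofactors assemble the dimer. The isotypes are encoded by separate genes with nearly the same protein, and which of them a cell uses depends on its type and stage.

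The promoters of 4 isotypes that span the signals measured here are shown, because each isotype is a gene of its own: Tuba1a, the brightest by signal, Tubb2a and Tubb3, neuronal β-isotypes, and Tuba8, which stayed under the signal limit in every pool. Each runs 5′ to 3′ on the strand of the gene from 250 bases before to 50 bases after the start, as given by RefSeq on GRCm38.p6, at chr15:98953452-98953751 (minus strand), chr13:34077959-34078258 (minus), chr8:123411303-123411602 (plus) and chr6:121210484-121210783 (plus). Capitals mark the match to a GC box, to a CCAAT box or to the TATA box, on either strand.
Tuba1a: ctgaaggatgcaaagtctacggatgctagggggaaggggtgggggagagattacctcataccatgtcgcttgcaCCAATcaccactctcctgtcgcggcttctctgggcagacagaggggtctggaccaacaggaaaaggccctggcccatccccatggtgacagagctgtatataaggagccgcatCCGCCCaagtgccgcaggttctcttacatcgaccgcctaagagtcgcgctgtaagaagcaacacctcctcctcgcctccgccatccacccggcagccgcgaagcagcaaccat
Tubb2a: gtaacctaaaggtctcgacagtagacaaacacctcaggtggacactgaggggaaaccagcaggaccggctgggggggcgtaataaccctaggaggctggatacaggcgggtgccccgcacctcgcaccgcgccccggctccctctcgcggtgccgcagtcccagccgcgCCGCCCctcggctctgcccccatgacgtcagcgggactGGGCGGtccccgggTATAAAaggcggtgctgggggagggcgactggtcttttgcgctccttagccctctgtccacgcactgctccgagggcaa
Tubb3: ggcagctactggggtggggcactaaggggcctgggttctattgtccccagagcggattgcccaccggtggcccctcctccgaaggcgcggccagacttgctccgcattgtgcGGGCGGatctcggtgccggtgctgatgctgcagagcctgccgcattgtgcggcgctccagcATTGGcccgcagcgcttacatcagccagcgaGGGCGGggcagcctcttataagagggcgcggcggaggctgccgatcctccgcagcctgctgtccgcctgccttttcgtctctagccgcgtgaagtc
Tuba8: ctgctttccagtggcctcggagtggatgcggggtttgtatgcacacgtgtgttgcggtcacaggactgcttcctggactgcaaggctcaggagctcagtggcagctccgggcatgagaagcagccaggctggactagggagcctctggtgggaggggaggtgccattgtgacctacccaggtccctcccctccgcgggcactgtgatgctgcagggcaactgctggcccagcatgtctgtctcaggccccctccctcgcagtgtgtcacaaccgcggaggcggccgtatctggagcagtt

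The Tuba1a promoter held a CCAAT match 176 bases and a GC box 63 bases before the start. In Tubb2a a TATA box, TATAAA, began 29 bases before the start, with GC boxes 81 and 43 bases before it. In Tubb3 a CCAAT match lay 77 bases and GC boxes lay 138 and 46 bases before the start, and Tuba8 held none of these 3 letter runs. RefSeq promoters were matched for 29 of the 41 genes (34 promoters). The GC box was found in 22 of the 34 (64.7%), against 35.7% of all 32851 promoters of the same length. The CCAAT box was found in 14 (41.2%, against 37.4%), and the TATA box in 6 (17.6%, against 13.6%), whereas the shares of an E-box (CANNTG), which 23 held, were 67.6% and 72.3%. The 6 TATA matches belong to 5 genes, because 2 overlapping windows of Dcx hold the same one (at −193 and −98). The others began at −29 (Tubb2a), −32 (Mapre1), −99 (Map1b) and 18 bases after the start (Tubb4b). The member promoters also held a median of 19 CpG dinucleotides, against 7 in all promoters, and a median of 61.2% G and C, against 52.7%. The GC box was searched as GGGCGG on both strands, like the others. These matches describe letters in a window and do not show that a factor binds there.

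The deposited values are MAS5 signals, an intensity per probe set in arbitrary units scaled to the same trimmed mean on each array. A gene is read here by its brightest probe set, by mean signal over the 6 pools. Signals of different probe sets also depend on how well their probes bind, so the order given below is an order of signals and not of transcript numbers. Tests took in the probe sets that read 200, the limit of the study's methods, in at least 1 pool. Of the 105 probe sets, 88 passed, for 35 genes, and 78 read at least 200 in all 6 pools. The other 17 probe sets included all of those for Tuba8, Tubg2, Map7 and Mapre3. Array medians lay between 99.9 and 118 and the highest signals between 36851 and 53562. The right pool of embryo 1 stood apart from the other 5 by higher signals at the bright end of the array and by markers of mesenchyme and muscle, whose values are given with the results they touch.

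Microtubule transcripts were among the strongest signals of the captured motoneurons. The brightest probe set averaged at least 10000 for 18 of the 39 genes, 1000 to 10000 for 11 and less for 10. Counted by probe set, 24 of the 105 member probe sets averaged at least 10000, against 522 of all 45037 (1.16%). The order of mean signals opened with Tuba1a at 41490, followed by Stmn1 (31200), Tubb2b (30430), Stmn3 (29871), Stmn2 (28439), Tubb5 (26295), Dpysl2 (26240), Map1b (24318), Dpysl3 (23100), Dcx (22443), Tubb2a (21842) and Mapre1 (20358). It closed with Mapre3 (126), Tubg2 (108), Map7 (105) and Tuba8 (76.0). Neighbours in this order overlapped in their 6 pools at every step except 1: all pools of Dpysl5 read above all pools of Map6 (ratio of means 1.39).

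**Figure D1:**
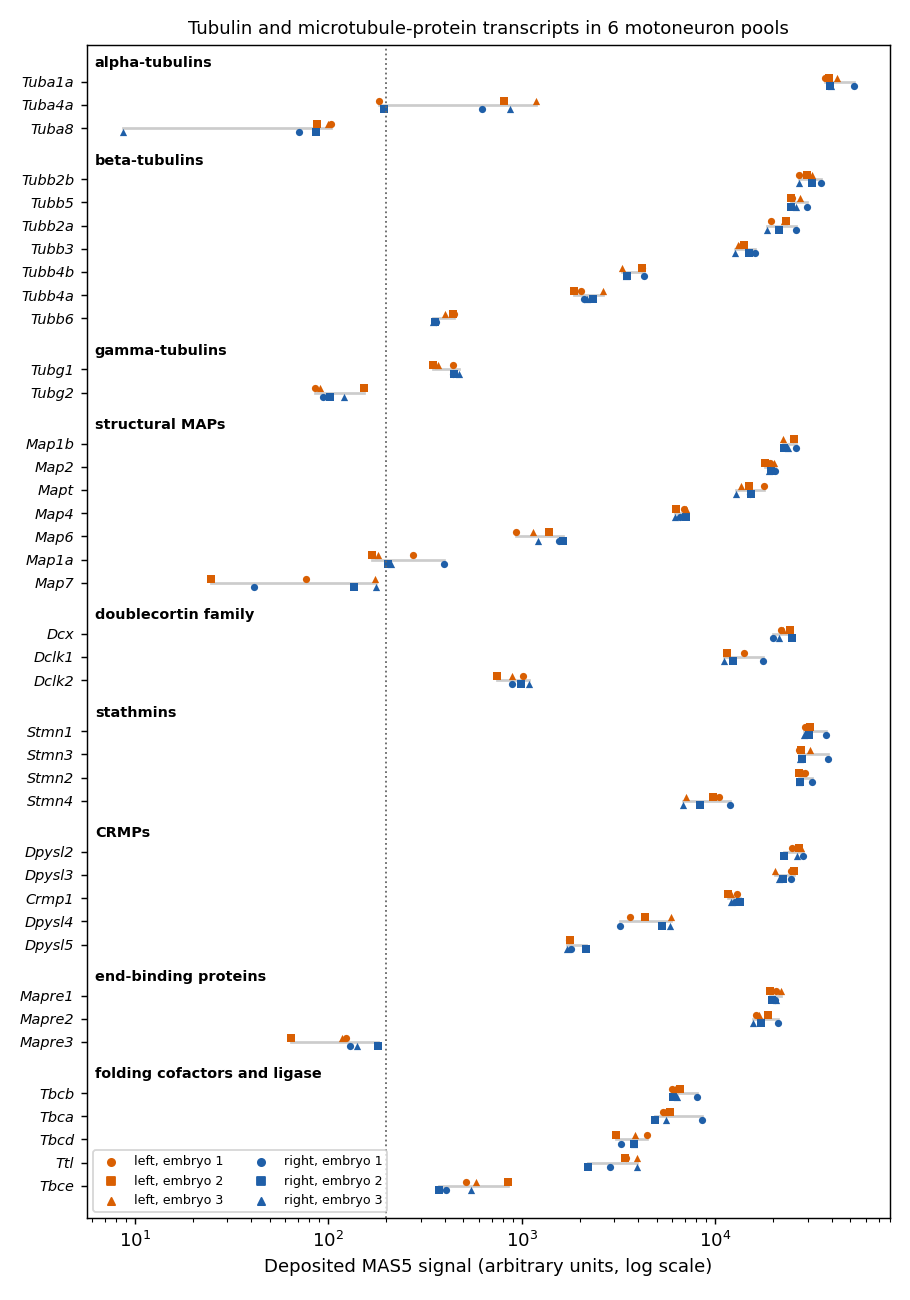
Deposited MAS5 signal on a log axis for the brightest probe set of each gene, grouped by role and ordered by mean signal. Orange marks left and blue marks right pools, with a circle, square and triangle for embryos 1, 2 and 3, grey lines span the 6 pools, and the dotted line is the limit of 200; Tuba1a lies highest and Tuba8, Tubg2, Map7 and Mapre3 lie under the limit.

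Among the α-tubulins, Tuba1a, the main isotype of young postmitotic neurons, read 36851, 38901 and 42635 in the left pools of embryos 1, 2 and 3, in that order here and throughout, and 52130, 38966 and 39459 in the right pools. It had the highest signal of all probe sets other than controls on each of the 6 arrays. The right pool of embryo 1 stood above the other 5, and the sides overlapped. Its probe set is of a type (suffix _x_at) in which some probes also match near-identical transcripts, so signal from Tuba1b and Tuba1c RNA may be included. The probe set annotated to Tuba1b together with Gm5620 ranged from 24702 to 35570, and the brighter of those annotated to Tuba1c together with Gm6682 from 127 to 422. Both are isotypes of many tissues. Tuba4a, an isotype that is made without the terminal tyrosine, read 184, 810 and 1190.5 in left and 620, 193 and 870 in right pools. The low pool was on the left in embryo 1 and on the right in embryo 2, and the sides overlapped. Tuba8, best known from testis and muscle, ranged from 8.72 to 103.

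The β-tubulins ranged from bright isotypes through Tubb4b and Tubb4a at middle signal to Tubb6 near the limit. Tubb2b, a main β-isotype of migrating and growing neurons, read 27084, 29717 and 31822 in left and 35044, 31733 and 27180 in right pools. Tubb5, which is widely expressed and high in dividing cells, ranged from 24593 to 29770, and Tubb2a, a further neuronal isotype, ranged from 18452 to 26057. Tubb2b and Tubb2a are close in sequence, and the probe set read for Tubb2a carries the suffix _s_at of probes shared between transcripts. Tubb3, the neuron-specific β-isotype that is widely used as a stain for neurons, read 13703, 14072 and 13081 in left and 15972, 14878 and 12672 in right pools. The sides overlapped, and the highest pool was again the right pool of embryo 1. Tubb4b, an isotype found in many tissues and in cilia, ranged from 3294 to 4266, and Tubb4a, which is best known from brain, from 1872 to 2643. Tubb6, an isotype of many non-neuronal cells, was the lowest with 346 to 445. Of the γ-tubulins, which nucleate microtubules, the widely expressed Tubg1 read 443, 347 and 368 in left and 443, 444 and 475 in right pools, and Tubg2, known from brain, ranged from 85 to 152.

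Map1b led the structural MAPs. It is the MAP of early axons, and it read 25289, 25538 and 22370 in left and 26100, 22729 and 23884 in right pools. Map1a, its relative that appears later in development, ranged from 168 to 398, and its mean over the 6 pools was 239.5. Map2, which becomes confined to dendrites, ranged from 18166 to 20339. Mapt (tau), which gathers in axons, read 17924, 14871 and 13624 in left and 15159, 15286 and 12838 in right pools. Map4, the MAP of most non-neuronal cells, read 6858, 6258 and 7060 in left and 6604, 7041 and 6182 in right pools. Neither Mapt nor Map4 separated the sides. Map6, which makes microtubules resist cold, ranged from 937 to 1632. Map7, which recruits kinesin-1, read 76.8, 24.9 and 174 in left and 41.5, 137 and 177 in right pools, under the limit in every pool.

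Dcx (doublecortin), which marks young migrating neurons, read 21957, 24263 and 22354 in left and 19846, 24797 and 21445 in right pools. Its relatives Dclk1 and Dclk2, which join the doublecortin domains to a kinase, ranged from 11152 to 17602 and from 744 to 1094. Stmn1, the most widespread stathmin, read 29186, 30794 and 30432 in left and 37542, 30620 and 28624 in right pools. Stmn2 (SCG10), a stathmin of growth cones, read 28969, 27213 and 28277 in left and 31466, 27587 and 27122 in right pools. For both stathmins the right pool of embryo 1 was the highest, and the other 5 pools lay close together. Stmn3 (SCLIP), another neuronal stathmin, ranged from 26954 to 38122, and Stmn4 (RB3) from 6790 to 11985. Dpysl2 (CRMP2), which binds tubulin dimers, read 24927, 27177 and 27603 in left and 28537, 22662 and 26532 in right pools. The other CRMPs ranged from 20261 to 25415 for Dpysl3, from 11687 to 13411 for Crmp1, from 3226 to 5891 for Dpysl4 and from 1719 to 2142 for Dpysl5. All 3 brightest members of these families, Dcx, Stmn1 and Dpysl2, overlapped between the sides.

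Mapre1 (EB1), which tracks growing plus ends, read 20687, 19105 and 21750 in left and 20381, 19720 and 20507 in right pools, one of the narrowest spans among the bright members. Mapre2 (EB2) ranged from 15730 to 21143, and Mapre3 (EB3), a form enriched in mature neurons, from 64.3 to 181. Of the folding cofactors, Tbcb, which handles α-tubulin, read 5975, 6590 and 6197 in left and 8094, 6066 and 6382 in right pools. Tbca, which handles β-tubulin, ranged from 4903 to 8570, and Tbcd and Tbce, which join both subunits into a dimer, from 3078 to 4439 and from 372 to 849. Ttl, the enzyme that puts the terminal tyrosine back on α-tubulin, ranged from 2208 to 3964. The right pool of embryo 1 gave the highest signal of both Tbcb and Tbca.

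No tubulin or microtubule gene differed between the sides past the test. limma with embryo as a block, adjusted over all 21853 tested probe sets by Benjamini-Hochberg, called 0 of the 88 member probe sets, and 0 (0%) of all tested probe sets in either direction. At an unadjusted p under 0.05, which 3.4% of all tested probe sets reached, limma gave 2 of the 88 as higher on the right (2.27%, against 1.92% of all tested) and 0 as higher on the left (against 1.48%). By the fold rule of the methods (1 sign in all embryos, with the mean log2(R/L) and that of at least 2 embryos beyond 0.58, that is 1.5-fold), 1 of the 88 was higher on the right, a probe set of Tubb6, against 2.4% of all tested, and 0 were higher on the left, against 1.55%. The study's selection also asked for a present call in at least 1 pool of each embryo, which was not repeated here, so these counts are not those of the study. The right pool was higher in all 3 embryos for 9 (10.2%, against 12.7%) and the left for 8 (9.09%, against 10.8%), shares near those of the whole array. Without embryo 1, the fold rule still gave 1 member probe set on the right and 0 on the left. With 3 embryos an exact two-sided sign-flip test cannot go below p = 0.25, so single genes were read only through the fit across all probe sets. Left and right pools are separate captures of the same animals, so the p-values rest on the ratios of these 3 littermates. For each probe set, limma drew the spread between embryos toward a variance trend over all tested probe sets. A p-value thus does not measure the spread of that probe set alone.

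What the members showed was narrow ratios around 0. Over the brightest probe sets of the 35 tested genes, 21 had a mean log2(R/L) above 0 and 14 below it. All 35 means lay within 0.58 on either side, as did 86 of the 88 member probe sets (97.7%, against 88.2% of all tested). The other 2 were dim probe sets of Tubb6 and of Mapre2 (log2(R/L) 1.18, 2.20 and −0.62). The median of the mean log2(R/L) was 0.03 over the 35 genes and 0.02 over all tested probe sets, and the median size of the mean was 0.08 against 0.18. The members are also brighter, with a median of the mean signals of 12460 against 508, and ratios are tighter at high signal. Among probe sets with mean signals of 5000 to 20000, the median size of the mean ratio was 0.06 for 25 member probe sets and 0.09 for 1216 others, and at 200 to 1000 it was 0.24 for 19 and 0.20 for 10804. The 95% interval of the ratio from limma lay wholly within 0.58 on either side for 27 of the 35, among them all 18 genes with a mean signal of at least 10000. For these 18 the mean log2(R/L) ran from −0.10 (Mapt) to 0.13 (Dclk1 and Tuba1a). The interval reached beyond 0.58 for Tuba4a, Tubb6, Tubg1, Map1a, Map6, Dclk2, Tbce and Ttl, so a difference of that size lay within the interval of these 8.

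**Figure D2:**
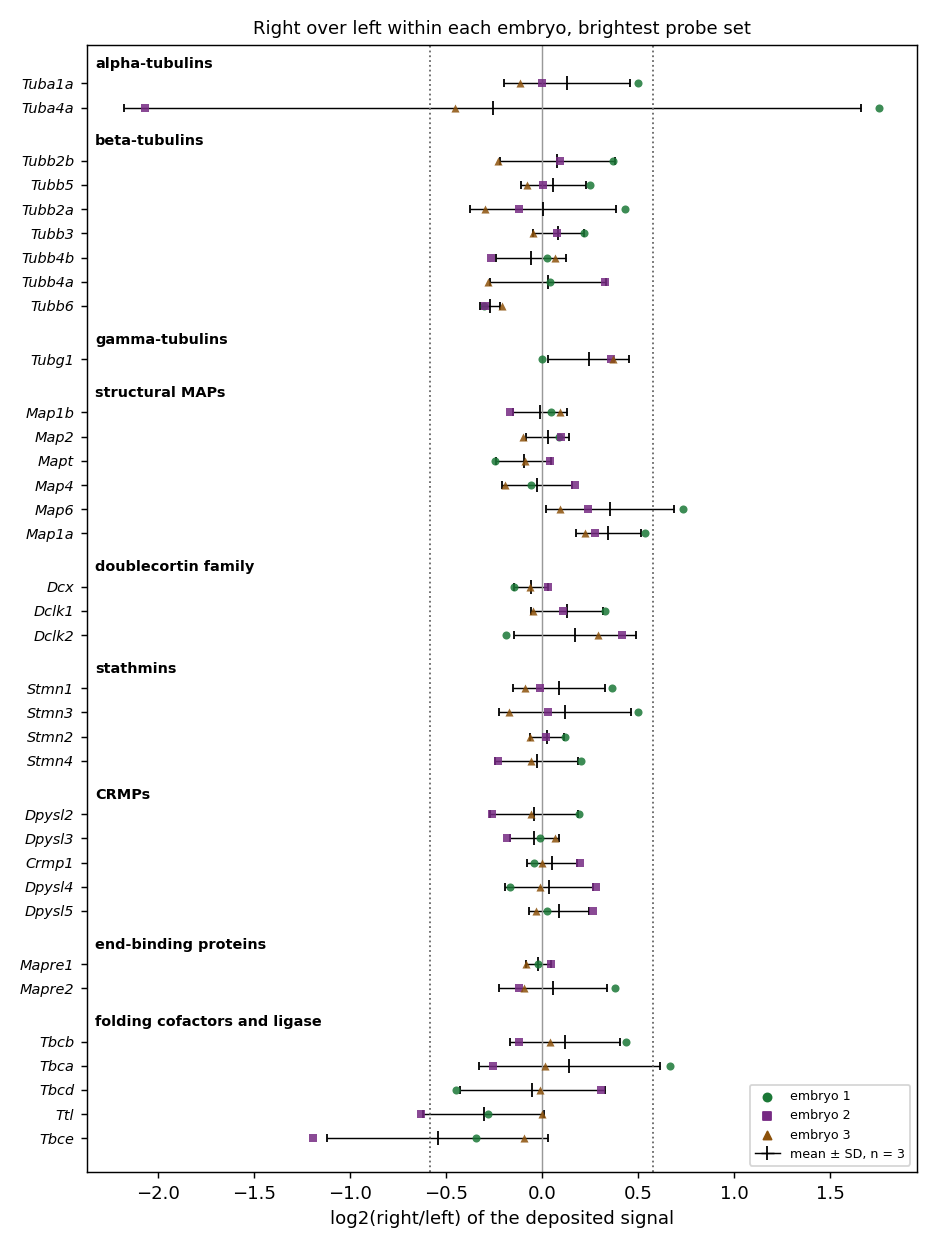
log2 of right over left signal within each embryo for the brightest probe set of the 35 tested genes, grouped by role. Symbols are the embryos, the bar and tick give mean ± SD (n = 3), and dotted lines lie at 0.58 on either side; all 35 means lie between the lines, and Tuba4a has the widest spread.

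The ratios of the leading member of each family were as follows. The log2(R/L) of Tuba1a was 0.13 ± 0.33 (SD, n = 3; limma adjusted p = 0.974), and that of Tubb2b was 0.08 ± 0.30 (limma adjusted p = 0.976). Tubb3 gave 0.09 ± 0.13, Map1b −0.01 ± 0.14, Dcx −0.06 ± 0.09, Stmn1 0.09 ± 0.24 and Stmn2 0.03 ± 0.09 (SD, n = 3 each). Tubg1, with equal pools in embryo 1, gave 0.24 ± 0.21 (limma adjusted p = 0.974). For Dpysl2 the value was −0.04 ± 0.23, for Mapre1 −0.02 ± 0.07 and for Tbcb 0.12 ± 0.29. Mapt stood at −0.10 ± 0.14 and Map4 at −0.03 ± 0.18. Each of these means except that of Tubg1 was smaller than its SD between embryos. Those of Tubb2b, Stmn1 and Stmn2 lay below 0 after quantile normalization (−0.02, −0.02 and −0.06), and those of Tubb2b, Tubb3 and Stmn2 under median scaling. For the 35 genes as deposited, limma gave no adjusted p under 0.974.

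The ratios farthest from 0 belonged to members of low or middle signal. Tbce, a cofactor whose mutation causes a motoneuron disease in mice, read 516, 849 and 580 in left and 407, 372 and 544 in right pools. The left pool was higher in every embryo, with log2(R/L) of −0.34, −1.19 and −0.09 (mean −0.54, 95% interval −1.15 to 0.07, limma adjusted p = 0.974), and without embryo 2 the mean was −0.22. Ttl read 3471, 3410 and 3964 in left and 2857, 2208 and 3959 in right pools, a mean log2(R/L) of −0.30 ± 0.31 (SD, n = 3), and its pools of embryo 3 were nearly equal. Without embryo 2 its mean was −0.14, and without embryo 3 it was −0.45. Over the 3 tested probe sets of Ttl the mean log2(R/L) ran from −0.30, that of the brightest, to 0.02. On the other side, Map6 read 937, 1382 and 1138 in left and 1556, 1632 and 1214 in right pools, and Map1a read 274, 168 and 181 in left and 398, 203 and 212 in right pools. The right pool was the higher one in each embryo for both, with mean log2(R/L) of 0.36 ± 0.33 and 0.35 ± 0.17 (SD, n = 3; limma adjusted p = 0.974 for each). Without embryo 1 the mean of Map6 was 0.17. The second tested probe set of Map6 went the other way (mean log2(R/L) −0.34), and that of Map1a gave 0.12. For Map6 this second probe set, and not the brightest, is annotated to a RefSeq transcript. A probe set of Dclk1 with a mean signal of 2834 had an unadjusted limma p of 0.047 (0.089 without the embryo block, 0.13 without the variance trend) and an adjusted p of 0.974, with log2(R/L) of 0.46, 0.51 and 0.09, whereas the brightest of the 9 for this gene gave 0.13 ± 0.19.

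The 2 probe sets of Tubb6 pointed in opposite directions in every embryo. In the dimmer of its probe sets the left pools read 163, 124 and 112 and the right pools 572, 224 and 183. Every right pool was above every left pool, with log2(R/L) of 1.81, 0.85 and 0.70 (mean 1.12 ± 0.60, SD, n = 3). The 95% interval ran from 0.24 to 2.00, and limma gave an adjusted p of 0.974 (0.018 before adjustment). This probe set reached 200 only in the right pools of embryos 1 and 2, so it was tested through the side on which it read higher. In all, 3 of the 88 were tested through right pools only and 0 through left pools only. In the brighter one the left pools read 445, 439 and 400 and the right pools 361, 358 and 346. Here every left pool was above every right pool, with log2(R/L) of −0.30, −0.30 and −0.21 (mean −0.27 ± 0.05, SD, n = 3; limma adjusted p = 0.974). The 2 probe sets thus give no single direction for the gene. The dimmer one is annotated to a RefSeq transcript and the brighter one is not. They may therefore not be equal readings of its RNA.

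Markers of mesenchyme and muscle were highest, like the dimmer Tubb6 probe set, in the right pool of embryo 1, but did not follow it in every embryo. Of 15 mesenchyme and sclerotome markers, 9 were tested, 5 of them only through right pools, 3 met the fold rule on the right and 6 stayed under 200 in every pool. The summed signal of the list went from 2237 in the left pool to 18421 in the right pool of embryo 1, from 1359 to 3035 in embryo 2 and from 2527 to 2578 in embryo 3. Bright genes lead this sum, with Col1a2 at 8264 in the right pool of embryo 1. The median log2(R/L) of the 9 tested was 3.23, 1.17 and 0.01 in embryos 1, 2 and 3. In embryo 3 they went both ways, from −0.91 (Prrx1) to 1.21 (Meox2). The left pools summed to between 1359 and 2527 and the right pools to between 2578 and 18421. The 8 skeletal muscle markers summed to 407 (left) and 4373 (right) in embryo 1, to 248 and 249.9 in embryo 2 and to 510 and 406 in embryo 3. All 6 of those tested reached 200 in right pools only, and the other 2 in no pool. The signal of the dimmer Tubb6 probe set was highest in the pool in which both lists were highest, and its log2(R/L) was 0.70 in embryo 3, in which the mesenchyme list summed to 2527 and 2578. Over embryos 2 and 3 without embryo 1, its mean log2(R/L) was 0.78. The part of these cells in the result was not tested. The 11 measured of 12 cell cycle markers went from 4175 to 8890 in embryo 1, from 5476 to 4707 in embryo 2 and from 6538 to 6604 in embryo 3. The motoneuron list, with 10 of 10 genes tested, summed to 44477 and 43819, 35455 and 31502, and 26409 and 26572 (left and right of embryos 1, 2 and 3), so markers of the labelled cell type were read on both sides. Of the remaining lists, pan-neuronal genes summed to between 120640 and 142170, endothelium to between 1438 and 2545, microglia and macrophage genes to between 1609 and 2317.5, and neural crest and sensory ganglion genes to between 706 and 1016. Neural progenitor genes summed to 9051 and 11357, 15685 and 15769, and 15994 and 14892 in the same order. Over the 8 of them tested, the median log2(R/L) was 0.75, 0.06 and −0.15 in embryos 1, 2 and 3. The fold rule on the right, met by 2.4% of all tested probe sets, was met by 2 of the 8, both dim. These were Pax6 (77.4 to 418, log2(R/L) 1.16, 0.94 and 0.79) and Notch1 (144 to 360, log2(R/L) 1.04, 0.65 and 0.25). Erythroid genes went from 20274 to 36432 in embryo 1, from 24776 to 22560 in embryo 2 and from 37552 to 32328 in embryo 3. Most of this sum was Hbb-y alone, at 19040 (left) and 32760 (right) in embryo 1.

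**Figure D3:**
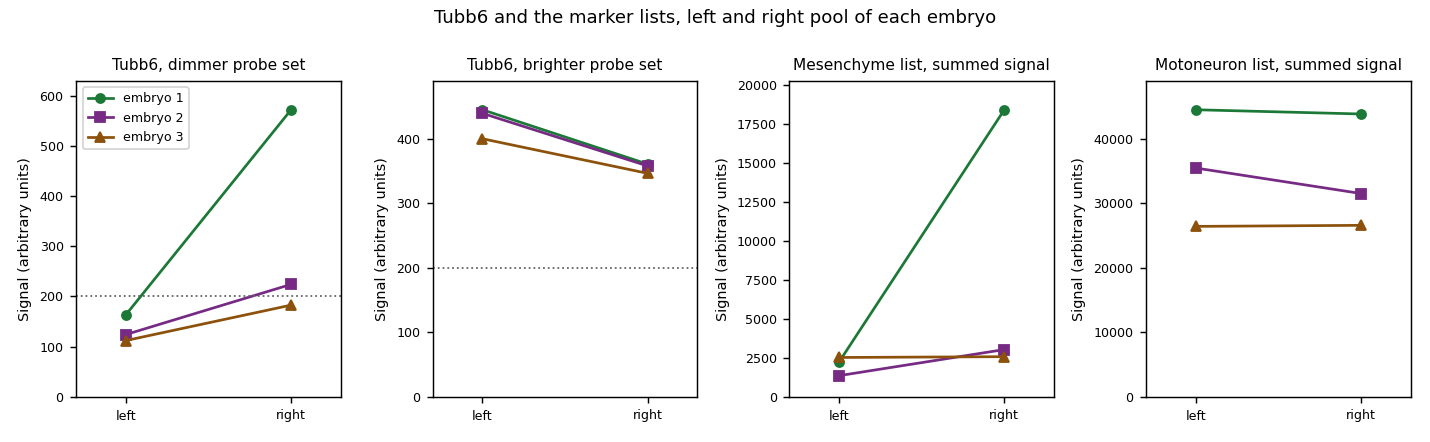
Signals of both Tubb6 probe sets and summed signals of the mesenchyme and motoneuron lists in the left and right pool of each embryo, in arbitrary units on axes that start at 0. Lines join the pools of an embryo and the dotted line is the limit of 200; the dimmer probe set is higher on the right and the brighter one on the left in all 3 embryos, and the mesenchyme list is at 18421 in the right pool of embryo 1.

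Most of the brightest members read higher in the right pool of embryo 1. Over the 35 genes the median log2(R/L), −0.03 when embryo 1 was left out of the means, was 0.09 in embryo 1, 0.03 in embryo 2 and −0.06 in embryo 3, and the right pool was the higher one for 23, 21 and 9 of them. For the 13 member probe sets with a mean signal over 20000 the medians were 0.20, 0.01 and −0.08. The other 130 probe sets of that brightness gave 0.31, −0.003 and −0.08. In embryo 1 the right pool was higher for 129 of the 130 and for 10 of the 13, the exceptions being Dcx, Mapre1 and a probe set of Dpysl3 (log2(R/L) −0.15, −0.02 and −0.01). The higher right signal of Tuba1a, Tubb2b, Stmn1 and Stmn3 in embryo 1 (log2(R/L) 0.50, 0.37, 0.36 and 0.50) thus had a counterpart in most other bright probe sets of the array. After quantile normalization the median of the 13 in embryo 1 was −0.08, with a range of −0.41 to 0.16, against −0.15 to 0.50 as deposited. That step gives equal ranks equal values, so it removes a shift shared by the brightest probe sets by construction. Tuba1a, at the top rank of every array, had a ratio of 0 after it. The ratio of 3′ to 5′ probe signals of actin, a reading of RNA length, was 2.51 in the right pool of embryo 1 and 1.90 to 2.24 in the other 5. The same ratio for Gapdh was 3.25 in that pool and 2.65 to 3.37 in the other 5, and the part of RNA length in this was not tested.

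**Figure D4:**
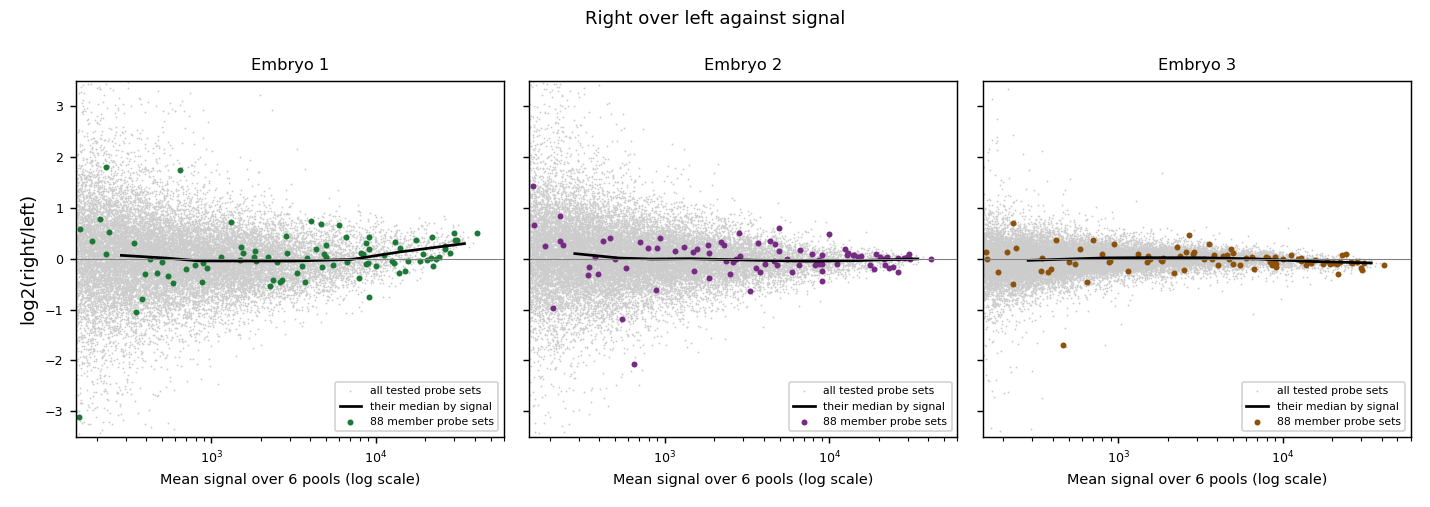
log2 of right over left signal against mean signal over the 6 pools (log axis), 1 panel per embryo. Grey points are all 21853 tested probe sets (those beyond 3.5 on either side or under a mean of 150 are outside the frame), the line is their median by signal class and coloured points are the 88 member probe sets; the median bends upward at the bright end in embryo 1, where 10 of 13 member probe sets over 20000 were higher on the right.

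The members were also compared between embryos, over both pools of each. Tuba4a had the widest span, with geometric means of 338, 396 and 1018 in embryos 1, 2 and 3 (3.01-fold between highest and lowest), but its pools within embryos 1 and 2 differed by more than that, with log2(R/L) of 1.75 and −2.07. Dpysl4 (CRMP3) had geometric means of 3418, 4785 and 5868, with left pools at 3622, 4336 and 5891 and right pools at 3226, 5279 and 5845. Both pools of embryo 3 were above those of the other embryos, and all of its probe sets had unadjusted p under 0.05 in limma's F test over embryos (for the brightest, an adjusted p of 0.148, and 0.0048 before adjustment). Stmn4, a stathmin of the nervous system, read 10414, 9732 and 7056 in left and 11985, 8296 and 6790 in right pools, with geometric means of 11172, 8985 and 6922 (limma adjusted p = 0.153). The second probe set of Stmn1 had geometric means of 3974, 4495 and 6414 (limma adjusted p = 0.164), whereas the brightest went the other way with 33101, 30707 and 29514 (limma adjusted p = 0.760). Map1a had geometric means of 331, 185 and 196. limma called 0 of the 88 as different between embryos after adjustment, against 59 of all tested (0.27%), and 10 at an unadjusted p under 0.05 (11.4%, against 15.3%). Prph, which encodes peripherin, a filament protein of motoneurons, is among those 59. It read 23019 and 23486, 15618 and 14011, and 10514 and 10752 (left and right of embryos 1, 2 and 3). The summed motoneuron list was highest in embryo 1 and lowest in embryo 3, but Prph is its brightest gene, so the sum is not a separate result. Whether cell composition or stage set these differences was not tested.

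**Figure D5:**
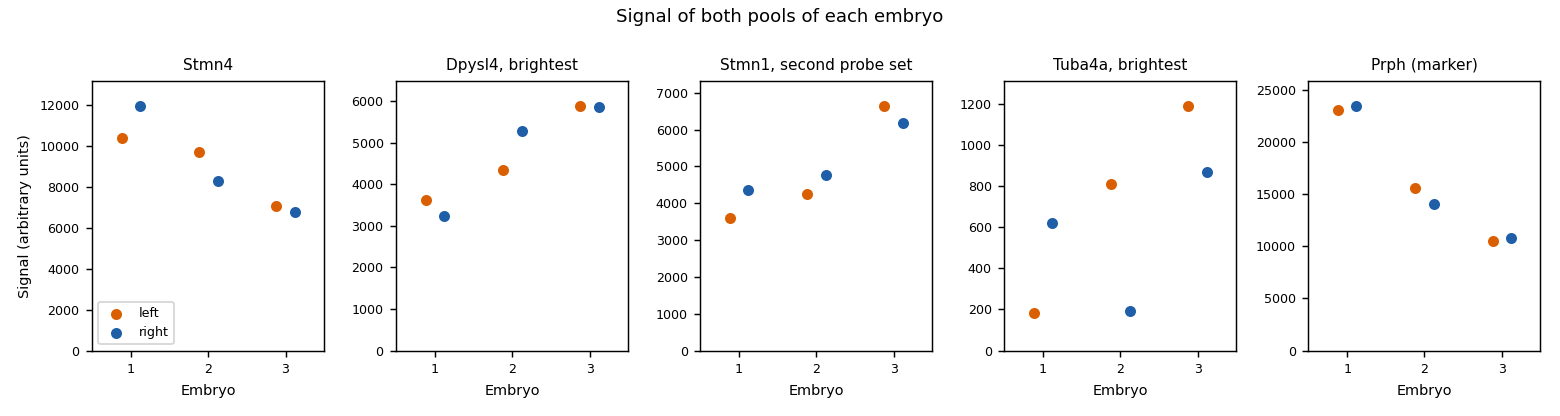
Signal in arbitrary units (axes from 0; orange for left, blue for right) of each pool for Stmn4, Dpysl4, the second probe set of Stmn1, Tuba4a and the motoneuron marker Prph. In all 5 panels the pools of embryos 1 and 3 do not overlap, and Tuba4a also differs widely between the pools of embryos 1 and 2. The brightest Stmn1 probe set, not drawn, has geometric means of 33101 in embryo 1 and 29514 in embryo 3.

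The wider machinery around microtubules gave a like picture. A list of 93 further genes (other tubulins, folding and tyrosination enzymes, severing proteins, plus- and minus-end proteins, the γ-tubulin ring complex, other MAPs and their kinases) was measured for 88, of which 83 passed the limit. limma called 0 of the 83 after adjustment, and the median of the mean log2(R/L) was −0.02. At an unadjusted p under 0.05 limma gave 2 on each side, against 1.92% (right) and 1.48% (left) of all tested probe sets. By the fold rule, 0 of the 83 were higher on the right and 1 on the left, read by the brightest probe sets. Of all tested probe sets, 2.4% met the rule on the right and 1.55% on the left. The latter was Clip4, a relative of the plus-end protein CLIP-170, at 625, 671 and 399 in left and 286, 397 and 357 in right pools (mean log2(R/L) −0.68 ± 0.49, SD, n = 3; limma adjusted p = 0.974). Over all 173 tested probe sets of the list, the rule was also met on the right by dimmer probe sets of Ttll4, a polyglutamylase, and Kif2c, a depolymerising kinesin, and on the left by one of Tubgcp4, of the γ-tubulin ring complex. In those 3 the mean log2(R/L) was 1.15, 1.94 and −0.995, and each read under 200 in at least 3 pools.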

How the data were processed

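RNA of laser-captured left and right pools was amplified and, once biotin-labelled, measured on Affymetrix mouse arrays. Signal intensities were made by the authors with MAS5 in Affymetrix Expression Console (its version and the genome build are not given in the sources used here). These deposited intensities are linear, with a mean of 500 on each array once the lowest and highest 2% are left out. MAS5 subtracts a background from mismatch probes, so ratios of dim probe sets are noisy. Present and absent calls were not analysed here, so the fold rule was applied without the present call that the study also required in each embryo.

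Probe sets were named through GEO's platform annotation. Of 45101, 64 controls were left out, and 21853 reached 200 in at least 1 pool and were tested. Log2 ratios were taken with nothing added. limma 3.58.1 (R 4.3.3; tables in Python 3.11.15) fitted side with embryo as a block and a variance trend, with Benjamini-Hochberg adjustment over all tested probe sets. Pairing comes from the labels (same embryo, same sections), and after removal of side means the correlation of both pools was 0.241, 0.215 and 0.495 in embryos 1, 2 and 3. The F test over embryos was added after the ratios had been seen.

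The members and lists were chosen with earlier results of these data known, so no p was adjusted over a list alone. Values in every pool are given for the brightest member of each role, members that met the fold rule, the 3 farthest ratios per direction, members whose brightest probe set had an unadjusted p under 0.05 (none), the 3 with the widest range over embryos, and Tubb3, Tubb6, Tuba1a, Tuba1c (as a range, since its probe sets are shared), Map4, Map7, Stmn2, Dcx and Mapt. Prph, Stmn4, the second Stmn1 probe set, the Dclk1 probe set with a mean signal of 2834 and the dim probe sets of Dclk1 and Mapre2 were chosen after their values were seen.

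In simulated data, 200 probe sets drawn at random from all 21853 tested, and not from the members, were moved. Of these, limma recovered 0 at a log2 change of 1, 62 at 2 (31%) and 128 at 3 (64%). The fold rule recovered 171, 194 and 200 along with 980, 943 and 946 others. In the arrays themselves it counted 524 on the right and 338 on the left. The simulated noise had the residual SD of each probe set, and the recoveries hold for that setting only. The number of arrays limits the precision. As alternatives, arrays were median-scaled or quantile-normalized, 50 was added to signals, and other signal limits, each embryo left out, no embryo block, no variance trend, other fold limits and a gene's mean over its probe sets were tried.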

Additional observations from a re-analysis of the deposited data

How the results depend on the processing

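The tests are limited by 3 embryos. In simulated data of this size limma recovered 0 of 200 probe sets moved by a log2 of 1. These 200 were drawn at random from all tested probe sets, with a median SD between embryos of 0.39, against 0.22 for the 35 genes. The simulation therefore does not give the recovery among the members. Of the brightest probe sets of the 35 genes, 0 passed the adjusted threshold under any alternative run. The sign of the mean ratio changed for 10 under median scaling, for 6 under quantile normalization (Tubb2a, −0.05; Tubb2b, −0.02; Tubb5, −0.0005; Map2, −0.03; Stmn1, −0.02; Stmn2, −0.06), and for 11, 11 and 2 without embryo 1, 2 and 3, and for 0 under the other alternatives. The Tubb6 pair, the Dclk1 probe set with a mean signal of 2834, Tbce, Ttl, Tubg1, Map1a and Map6 kept their sign under all of them. Each had the same sign in all 3 embryos, so leaving 1 out could not reverse its mean. The embryo block, the variance trend and the signal limits do not enter the mean ratio. Only median scaling and quantile normalization could thus have changed these signs. The ratio of the dimmer Tubb6 probe set ran from 0.78 to 1.33 with limma adjusted p from 0.802 to 1, and that of the brighter Tubb6 probe set from −0.36 to −0.24. Only 1 member probe set met the fold rule on the right. Without a signal limit there were 2, with a 2-fold limit 0, and with 1 embryo left out 1 to 3. The 3 came without embryo 3 and added dim probe sets of Mapre2 and of Dclk1, the latter another one with a mean signal of 159. The median log2(R/L) over the members, 0.03, was −0.057 under median scaling, which moved the median of all tested probe sets by −0.09, and also lay below 0 under quantile normalization (−0.02) and without embryo 1 (−0.03), so its sign depended on the scaling and on embryo 1. The cause was not tested.

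Over the whole array, the fold rule counted 524 on the right and 338 on the left. With 50 added the counts were 333 and 197, without a limit 2805 and 1696, with a limit of 500 they were 131 and 104, with a mean of at least 200 they were 234 and 176, with a 2-fold limit 191 and 95, and beyond the limit in all 3 embryos 84 and 49. With 1 embryo left out they ran from 144 to 986 and from 143 to 607, the highest without embryo 3. The limma count after adjustment, 0 on each side, ran from 0 to 15 on the right and from 0 to 6 on the left with 1 embryo left out, with 1 and 1 without embryo 1 and 15 and 6 without embryo 2. Without the embryo block, limma called 0 on each side after adjustment, and at an unadjusted p under 0.05 the counts were 171 and 149 in place of 419 and 323. The block changed no call after adjustment.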
